A study of Mus musculus with 4 samples.

Results

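Syndecans and glypicans are the proteoglycans that carry heparan sulfate chains on the cell surface. The 10 genes described here are the 4 syndecans, Sdc1 to Sdc4, and the 6 glypicans, Gpc1 to Gpc6, found by symbol among the 56980 genes of the deposited count table. Each symbol matched 1 row. The table holds RNA-seq counts of mesenchymal stromal cells (MSCs) from the bone marrow of 4 male wild-type mice aged 14 weeks, of the strain C57BL/6J inbred in-house over a long time, with no treatment named in the labels. From each mouse, 100 cells with the surface phenotype CD45- Ter119- CD31- CD51+ PDGFRa+ Sca1- were sorted as 1 library, and cDNA was made from polyadenylated RNA. All 4 libraries belong to one group, so levels were compared between genes and between mice and no conditions were compared. In the study, these libraries supply the MSC side of a search for ligand and receptor pairs between MSCs and macrophages, and Sdc1 and Sdc4 are among the receptors it lists on MSCs. The study drew that list from these libraries with an expression cutoff, so the presence of both genes here is not independent evidence.

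Syndecans span the membrane and glypicans are held on its outer face by a lipid (GPI) anchor. The sulfated chains of both bind growth factors, chemokines and matrix proteins, and so present or hold them at the cell surface. The short inner tail of syndecans binds scaffold proteins such as syntenin, the product of Sdcbp, while glypicans are best known for tuning Wnt, Hedgehog, BMP and FGF signals. In the marrow, CXCL12, the chemokine that retains blood stem cells, and fibronectin, a matrix protein, both bind heparan sulfate.

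The end of the coding sequence, which encodes the end of the syndecan tail, is shown. Most positions shared by all 4 genes there lie close to the stop codon, and the bases before them vary. The last 42 coding bases of each gene, stop codon included, are written 5′ to 3′ from the GENCODE M21 transcripts on GRCm38, and capitals mark the 14 positions at which all 4 genes carry the same base.
Sdc1: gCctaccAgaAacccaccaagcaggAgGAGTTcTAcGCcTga
Sdc2: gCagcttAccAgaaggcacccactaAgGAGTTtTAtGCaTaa
Sdc3: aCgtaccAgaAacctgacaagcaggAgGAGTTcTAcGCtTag
Sdc4: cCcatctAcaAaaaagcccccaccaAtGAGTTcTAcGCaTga
Sdc1 and Sdc3 shared 34 of these 42 bases and Sdc2 and Sdc4 shared 28, whereas the other pairs shared between 17 and 24. Over whole coding sequences, the aligned bases of syndecan pairs were 65.3% to 73.7% identical and those of glypican pairs 57.3% to 68.5%, the highest for Gpc4 and Gpc6. Among the syndecans, this share was highest for Sdc3 and Sdc4, over 597 aligned bases, and lowest for Sdc2 and Sdc4, over 554. Sdc1 and Sdc3 were aligned over 915 bases. With such unlike lengths, these shares do not rank how closely the syndecans are related. The longest stretch shared without a mismatch was 29 bases between Sdc3 and Sdc4 and 17 bases among the glypicans, between Gpc4 and Gpc6.

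The libraries held between 22738604 and 43545349 counts. Genes with a count numbered 16109 in mouse 2 and 18683 to 18907 in the other mice. Levels are given as TPM, counts divided by the exon length of the gene and scaled to 1000000 per library, so that genes can be compared. The genes of the positive sort antigens, Pdgfra and Itgav, were at 30.7 to 48.2 TPM and 12.9 to 18.1 TPM. Those of the negative antigens CD45 and CD31, Ptprc and Pecam1, stayed under 0.3 TPM. Ly6a, which encodes the negative antigen Sca1, had 1, 120, 0 and 144 counts in mice 1 to 4. These were 0.0472, 8.95, 0 and 11.6 TPM, so mice 2 and 4 came near the level of Itgav. Erythroid genes, of a lineage the sort removes, had summed levels from 35.04 to 4885 TPM. The osteoblast genes Bglap, Ibsp, Sp7 and Alpl together reached 77792 to 168024 TPM. A list of niche-cell genes (Cxcl12 with Lepr, Foxc1, Prrx1, Ebf3 and Nes) reached 1052 to 4534 TPM. Most of the osteoblast sum was Bglap, at 55668 to 156730 TPM, and most of the niche-cell sum was Cxcl12, at 983 to 4329 TPM. Bglap and Ibsp, the latter at 10570 to 20907 TPM, were each above Cxcl12 in every mouse. Sp7 and Alpl, at 151 to 339 and 550 to 963 TPM, were each below it in every mouse. In such bulk libraries, fewer cells of a type and less RNA per cell cannot be told apart.

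All 4 syndecans and 3 of the 6 glypicans, Gpc4, Gpc1 and Gpc6, had a median above 1 TPM, the cutoff for expression that the study uses. The same 7 genes were above 1 TPM in every mouse. Among protein-coding genes, 44.2% had a median above 1 TPM and 30.1% were above it in every mouse. The same 7 members had at least 10 counts in every mouse, which 35.2% of protein-coding genes had. Over all genes with a length, these shares were 22.9% and 15.4%. In order of median TPM, the members were Sdc2, Sdc4, Gpc4, Gpc1, Sdc1, Sdc3, Gpc6, Gpc3 and then Gpc2 and Gpc5, whose medians were both 0. The 6 highest had medians between 37.0 and 171 TPM, higher than those of at least 90.7% of protein-coding genes.

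**Figure D1:**
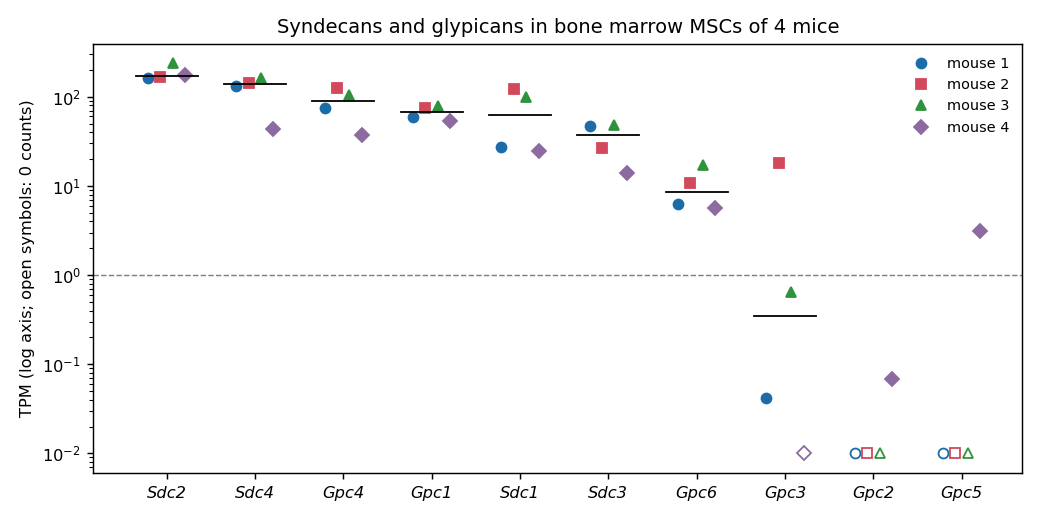
TPM of each syndecan and glypican (log axis) in each of the 4 mice, in order of median TPM. Symbols are mice, black lines are medians, open symbols at the bottom stand for 0 counts and the dashed line marks 1 TPM; 7 genes lie above the line in every mouse, Gpc3 only in mouse 2 and Gpc5 only in mouse 4.

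Sdc2, the syndecan best known from mesenchymal cells, had the highest median of the family. It lies on the plus strand of chromosome 15 from 32920723 to 33034935 in GRCm38. Its levels in mice 1 to 4 were 162, 168, 236 and 175 TPM, based on 10069, 6586, 14375 and 6379 counts. The mean was 185 ± 34.1 TPM (SD, n = 4), and mouse 3 was the high one while the other mice lay close together. Sdc2 was the highest syndecan in every mouse.

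Sdc4, a broadly expressed syndecan found at focal adhesions, followed with 133, 143, 161 and 43.4 TPM in mice 1 to 4, from 5940, 4049, 7094 and 1142 counts. Its mean was 120 ± 52.4 TPM (SD, n = 4). Mouse 4 was low and the other 3 mice were alike. The gene lies on the minus strand of chromosome 2 (GRCm38, from 164424247 to 164443887).

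Sdc1, which encodes the plasma cell antigen CD138 and is also found on epithelia, differed most between mice of all syndecans. It had 27.3, 121, 98.1 and 24.6 TPM in mice 1 to 4, from 1827, 5147, 6456 and 968 counts. The mean over mice was 67.9 ± 49.4 TPM (SD, n = 4). Mice 2 and 3 were high and mice 1 and 4 were low, with a ratio of 4.94 between the highest and the lowest. The 7 plasma cell markers Jchain, Mzb1, Tnfrsf17, Irf4, Prdm1, Igkc and Ighm summed to 9.05, 0.0357, 0.109 and 13.3 TPM in mice 1 to 4. In mice 1 and 4 the sum was nearly all Ighm. Mzb1, Tnfrsf17 and Prdm1 had 0 counts in every mouse. The epithelial markers Krt5 and Krt8 also had 0 counts in every mouse, and Epcam and Cdh1 together had 1, 0, 0 and 33 in mice 1 to 4. The part of plasma, epithelial or other cells in the level of Sdc1 was not tested. Sdc1 lies on chromosome 12, plus strand, from 8771323 to 8793715 (GRCm38).

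Sdc3, first described in nervous tissue, was the lowest syndecan in 3 of the 4 mice. Its values were 47.4, 26.6, 47.9 and 14.0 TPM in mice 1 to 4, from 4992, 1773, 4960 and 865 counts. The mean over mice was 33.97 ± 16.6 TPM (SD, n = 4). Mice 1 and 3 were high, and in mouse 1 Sdc3 exceeded Sdc1. The gene is on chromosome 4, plus strand, from 130792537 to 130826319 (GRCm38).

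Of the glypicans, Gpc4 and Gpc1 carried the family in every mouse. Gpc4 (GRCm38 chromosome X, minus strand, from 52053021 to 52165252), known as a modulator of Wnt and BMP signals, had 75.4, 124, 105 and 36.8 TPM in mice 1 to 4, from 3518, 3649, 4827 and 1007 counts. Its mean was 85.3 ± 38.01 TPM (SD, n = 4), with mouse 4 lowest. Gpc1 (chromosome 1, plus strand, from 92831645 to 92860779), a glypican linked to FGF signalling, had 59.0, 75.0, 79.5 and 53.0 TPM, from 5359, 4307, 7090 and 2826 counts. Its mean over mice was 66.7 ± 12.7 TPM (SD, n = 4). All 4 mice lay within a ratio of 1.5 of each other for Gpc1. Gpc6 (chromosome 14, plus strand, from 116925315 to 117976544), a glypican needed for bone growth, was lower, with 6.22, 10.9, 17.0 and 5.65 TPM, from 703, 777, 1892 and 375 counts. Gpc6 averaged 9.94 ± 5.28 TPM (SD, n = 4), with mouse 3 highest.

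Gpc3 and Gpc5 were each above 1 TPM in a single mouse. Gpc3, a glypican that restrains Hedgehog signalling and limits body growth, had 2, 544, 30 and 0 counts in mice 1 to 4. Its levels were 0.0423, 18.2, 0.645 and 0 TPM, and the 0 counts of mouse 4 allow up to 0.108 TPM at 3 counts. Mouse 2 alone held 544 of the 576 counts. Gpc5 had 145 counts in mouse 4, or 3.15 TPM, and 0 in the other mice, where 3 counts correspond to between 0.0383 and 0.0606 TPM. Gpc2, a glypican of developing neurons, had 3 counts in mouse 4, or 0.0679 TPM, and 0 counts in the other mice. Such genes were not rare, since 16.8% of the 12181 protein-coding genes that were above 1 TPM in any mouse were above it in exactly 1. In mouse 2, where Gpc3 was above 1 TPM, a list of adipocyte markers (Pparg, Cebpa, Lpl and Adipoq) reached 962 TPM. The other mice had 199 to 439 TPM. The niche-cell genes reached 4534 TPM in mouse 2, where the others had 1052 to 2316 TPM. All 4 adipocyte markers and 5 of the 6 niche-cell genes, all but Prrx1, were highest in mouse 2. In mouse 4, where Gpc5 was found, the epithelial markers had 33 counts and the B cell markers 22 counts, all from Cd79a, each with at most 1 count in any other mouse. The part of these cells in either result was not tested.

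Gpc3 and Gpc4 are neighbours on chromosome X, on the same strand with 107173 bases between them, and Gpc5 and Gpc6 are neighbours on chromosome 14 with 400135 bases between them. In each pair 1 gene was above 1 TPM in every mouse and the other was not. Gpc3 and Gpc5 were above 1 TPM in a single mouse each, and Sdc3 in every mouse. The sequences before the starts of Gpc3, Gpc5 and Sdc3 are shown to compare their base composition. Each is the 250 bases before the RefSeq start on GRCm38.p6, 5′ to 3′ on the strand of the gene, with CG pairs in capitals. The regions are chrX:52613975-52614224 on the minus strand for Gpc3, chr14:115091965-115092214 on the plus strand for Gpc5 and chr4:130792287-130792536 on the plus strand for Sdc3.
Gpc3: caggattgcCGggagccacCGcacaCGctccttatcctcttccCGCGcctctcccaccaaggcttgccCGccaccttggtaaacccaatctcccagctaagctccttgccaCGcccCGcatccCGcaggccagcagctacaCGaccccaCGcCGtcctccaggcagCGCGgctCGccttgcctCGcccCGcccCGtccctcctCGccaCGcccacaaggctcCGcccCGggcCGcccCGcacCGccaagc
Gpc5: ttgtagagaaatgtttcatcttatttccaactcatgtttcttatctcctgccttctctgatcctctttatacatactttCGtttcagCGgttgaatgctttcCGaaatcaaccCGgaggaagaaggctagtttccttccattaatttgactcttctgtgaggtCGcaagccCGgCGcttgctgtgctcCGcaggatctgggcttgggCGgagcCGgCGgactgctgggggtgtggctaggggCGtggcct
Sdc3: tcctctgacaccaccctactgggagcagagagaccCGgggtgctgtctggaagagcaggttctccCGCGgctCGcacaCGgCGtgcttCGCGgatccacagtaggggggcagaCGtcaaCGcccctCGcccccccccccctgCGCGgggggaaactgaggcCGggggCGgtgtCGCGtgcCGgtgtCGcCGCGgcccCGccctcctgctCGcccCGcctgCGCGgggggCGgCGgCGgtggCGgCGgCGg
These stretches hold 25, 12 and 32 CG pairs. RefSeq windows of 300 bases, which also take in the 50 bases after the start, were matched for 7 of the members and not for Sdc2, Gpc1 and Gpc6. All 7 windows had more CG pairs than the median window, from 14 for Sdc1 to 44 for Sdc3 against 7. Sdc1 had fewer than Gpc5, at 17, and Gpc3, at 30, had more than Gpc4, at 22. Whether CG pairs go with the level of a gene was not tested. The letters GGGCGG, on either strand, were present in all 7 windows and in 35.7% of the 32851 windows of all genes. The letters TATAAA, on either strand, were present in that of Gpc5 alone and in 13.6% of all windows.

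Summed over each family, the syndecans had 369, 459, 543 and 257 TPM in mice 1 to 4 and the glypicans 141, 228, 203 and 98.6 TPM. In all 4 mice the syndecan sum was the higher one, and the difference in log2(TPM + 1) averaged 1.30 ± 0.19 (SD). Flipping the signs of these differences in every way, two-sided, gave an exact permutation p of 0.125, the smallest value that 4 mice allow. Sdc2 made up 43.9%, 36.6%, 43.4% and 68.1% of the syndecan sum in mice 1 to 4, and its share in mouse 4 rose above the others while that of Sdc4 was lowest there, at 16.9% against 29.7% to 35.9%. Sdc1 ranged from 7.38% of the sum in mouse 1 to 26.5% in mouse 2. Gpc4 made up between 52.0% and 54.3% of the glypican sum in mice 1 to 3 and 37.3% in mouse 4, where Gpc1 was the highest glypican at 53.7%. Gpc3 reached 7.98% of the glypican sum in mouse 2, and Gpc5 3.19% in mouse 4.

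**Figure D2:**
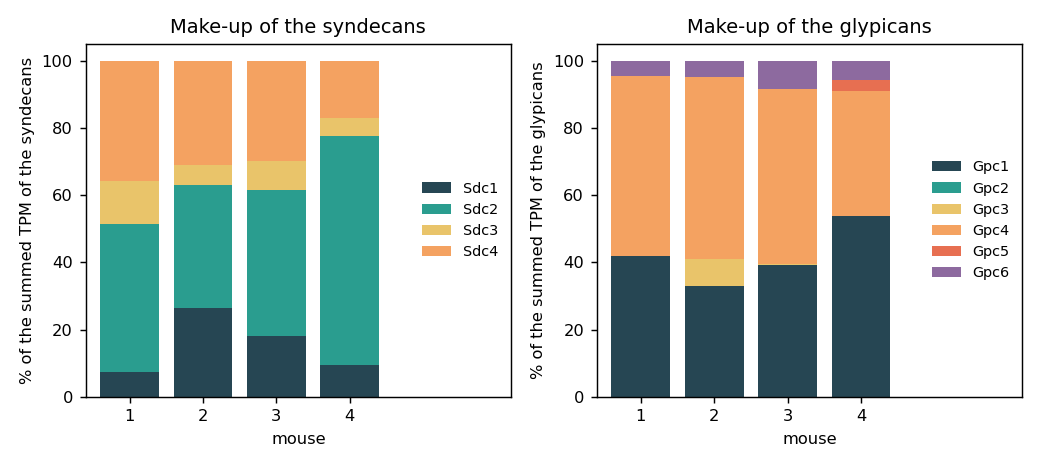
Share of each gene in the summed TPM of the syndecans (left) and of the glypicans (right), in %, for each mouse; each bar adds up to the whole family. Sdc2 is the largest syndecan share in every mouse, and Gpc4 and Gpc1 together fill most of every glypican bar.

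Neighbours in the order of levels were compared, taking both genes of a pair from the same mouse on the log2(TPM + 1) scale, with Benjamini-Hochberg adjustment over the 9 neighbour pairs. The order came from the medians of these same libraries, so the direction of each pair is a description of the ranking and the SD shows how steady it was. No exact permutation p over 4 mice can fall below 0.125, so that no pair could pass 0.05, and adjusted values were 0.375 or higher. Sdc4 exceeded Gpc4 in 4 of 4 mice by 0.46 ± 0.29 (SD), and Sdc3 exceeded Gpc6 in 4 of 4 mice by 1.64 ± 0.74, both larger than their SD between mice (exact p = 0.125 and adjusted p = 0.375 for each). Sdc2 exceeded Sdc4 in 4 of 4 mice, but its lead of 0.76 ± 0.83 was smaller than its SD and widest in mouse 4. Gpc4 and Gpc1 differed by 0.24 ± 0.53 and Gpc1 and Sdc1 by 0.29 ± 0.92, so that these neighbours did not differ beyond their spread. The sign of the difference between Gpc4 and Gpc1 turned with the gene length used, to -0.06 with the longest transcript. Sdc1 exceeded Sdc3 by 0.79 ± 1.20 in 3 of 4 mice, also within the spread. Gpc6 exceeded Gpc3 in 3 of 4 mice, all but mouse 2, by 2.07 ± 1.87, larger than its SD (exact permutation p = 0.25, adjusted p = 0.562). Below Gpc6, neither the 1.24 ± 2.05 between Gpc3 and Gpc2 nor the -0.49 ± 0.98 between Gpc2 and Gpc5 exceeded its SD.

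Among the relatives, Gpc4 was above Gpc6, its closest relative in coding sequence, with a difference in log2(TPM + 1) of 2.97 ± 0.50, in all 4 mice. Gpc3 was below its neighbour Gpc4 in 4 of 4 mice, by -5.04 ± 1.61, and Gpc5 below its neighbour Gpc6 in 4 of 4 mice, by -2.82 ± 1.52. Each of these 3 differences was larger than its SD (exact permutation p = 0.125, adjusted p = 0.188 over 6 pairs). Gpc3 and Gpc5, which form a branch of their own, differed by 0.75 ± 2.62, well within the spread. With 1 mouse above 1 TPM for each, whether they exclude each other cannot be told.

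**Figure D3:**
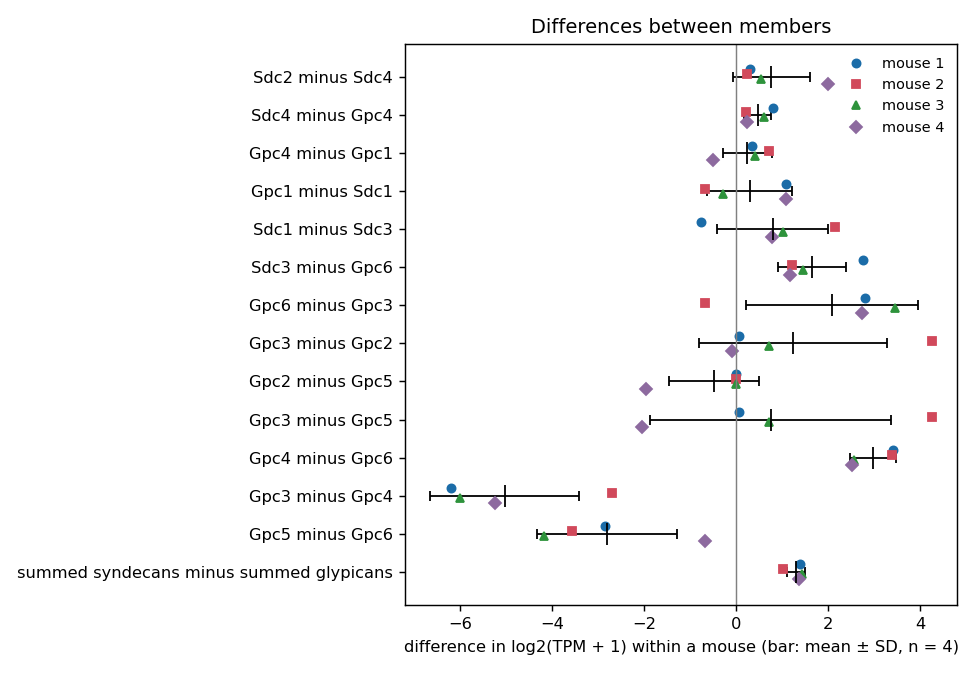
Differences in log2(TPM + 1) within each mouse for neighbours in the order of levels, for related pairs and for the family sums; coloured symbols are mice, and the black tick and bar are the mean ± SD over 4 mice. Sdc4 minus Gpc4, Sdc3 minus Gpc6, Gpc4 minus Gpc6 and the family sums lie to the right of 0 in every mouse.

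The coefficient of variation between mice was 18.4% for Sdc2 and 19.0% for Gpc1. Counting error alone would give 1.06% and 1.47%, but it leaves out the noise of making and amplifying cDNA from 100 cells, which these libraries do not separate from differences between mice. It was between 43.7% and 53.1% for Sdc4, Gpc4, Sdc3 and Gpc6, and 72.7% for Sdc1. Against the 1695 genes within a factor of 2 of its mean, Sdc1 varied more than 91.5%, and their median was 33.6%. Gpc1 was among the steadier genes of its level, varying more than 19.6% of 1711 genes. Gpc3 reached 190%, above 89.2% of the 5432 genes of similar mean. None of the 7 members above the cutoff had a single mouse set apart by Dixon's criterion, which 5.75% of all genes above the cutoff had. Among the 7 members above the cutoff, 6 had their lowest value in mouse 4 and Sdc2 had its lowest in mouse 1. Of all protein-coding genes above 1 TPM in every mouse, 34.6% were lowest in mouse 4. The count stayed at 6 of the 7 members with protein-coding genes as the denominator and with TMM factors. With the 10 highest genes left out of the denominator, 3 of the 7 members were lowest in mouse 4. The share of 34.6% was not recalculated for these settings. Bglap alone took 156730 TPM in mouse 4 and 55668 to 119827 TPM in the others, and its part in the count was not tested.

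**Figure D4:**
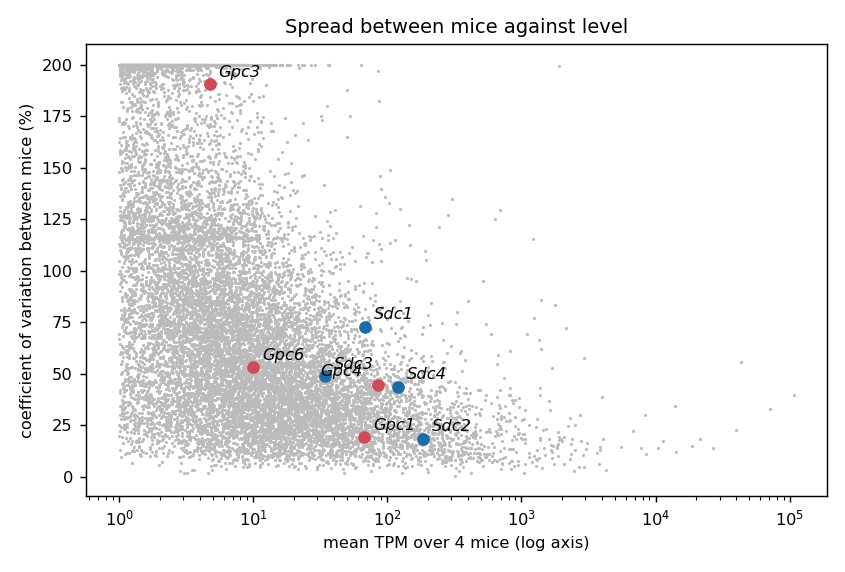
Coefficient of variation between the 4 mice (%) against mean TPM (log axis) for all genes with a mean above 1 TPM (grey), with syndecans in blue and glypicans in red. Sdc2 and Gpc1 lie low at 18.4% and 19.0%, Sdc1 at 72.7% and Gpc3 at 190% near the top.

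Some members share exonic bases with other annotated genes, and the counting parameters that the study states include neither a strand option nor one for reads on several genes. Gpc1 shares 18.9% of its exonic bases with Ankmy1 on the opposite strand and Gpc2 shares 55.6% with Gm43720 on the same strand. Sdc3 shares 6.93% with Gm26716 on the opposite strand. Ankmy1, Gm43720 and Gm26716 had 0 counts in every mouse. With lengths cut to the bases that no other gene covers, the mean of Gpc1 was 78.5 TPM in place of 66.7 TPM, and that of Gpc2 was 0.0368 TPM in place of 0.0170 TPM. No near-identical stretch of another gene was found for Sdc1, Sdc4, Gpc3, Gpc4 and Gpc6, and one covers 3.40% of the longest Sdc2 transcript.

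The enzymes that build the chains were taken as lists chosen by function. Of the 7 enzymes that build or trim the linker between the core protein and the chain, 6 were above 1 TPM in every mouse. The share among protein-coding genes was 30.1%. B3gat3, which adds the last sugar of the linker, had the highest median, with 60.2 ± 15.3 TPM (mean ± SD, n = 4), and B4galt7 and B3galt6, which add the galactoses, had 28.4 ± 16.3 and 21.6 ± 15.6 TPM. B4galt7, B3galt6 and B3gat3 were all lowest in mouse 4, at 8.12, 2.86 and 39.2 TPM. Of the xylosyltransferases that start the linker, Xylt2 was found in every mouse at 2.17 to 5.98 TPM, while Xylt1 had 572, 0, 1 and 30 counts in mice 1 to 4. The difference in log2(TPM + 1) between Xylt1 and Xylt2 was -1.55 ± 1.14, with Xylt1 lower in 3 of 4 mice (p = 0.25 in the exact permutation test, 0.417 after adjustment over 5 enzyme pairs).

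All 5 genes of chain polymerization had a median above 1 TPM, as did 44.2% of protein-coding genes. Ext2 and Ext1 encode the subunits of the polymerase. Ext2 had 46.2, 32.3, 45.8 and 24.4 TPM in mice 1 to 4 and Ext1 had 6.43, 3.61, 7.52 and 11.6 TPM, so that the subunits did not overlap in level. The difference in log2(TPM + 1) between Ext1 and Ext2 was -2.25 ± 0.84, larger than its SD and of one sign in all 4 mice (p = 0.125 in the exact permutation test, 0.417 after adjustment). Extl2 and Extl3, relatives that act on the linker and the first sugars of the chain, were between 3.05 and 29.4 TPM. Extl1 was above 2 TPM in mice 1 to 3 and had 1 count in mouse 4.

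The enzymes that modify the chain had 4 of 16 genes above the cutoff and 2, Ndst1 and Hs2st1, above 1 TPM in every mouse. Ndst1 and Ndst2, which replace acetyl by sulfate groups, had medians of 3.44 and 7.06 TPM and did not differ beyond their spread (-0.26 ± 1.61, exact permutation p = 0.75). Ndst2 was at 6.99 to 7.40 TPM in mice 1 to 3 and had 0 counts in mouse 4, which allows up to 0.0639 TPM. Hs2st1 ranged from 1.27 to 8.73 TPM. Hs6st1 had 2.07, 0, 1.75 and 5.69 TPM in mice 1 to 4, and Hs6st2 was found only in mouse 4, at 2.66 TPM. Their difference in log2(TPM + 1) was 0.99 ± 0.73, with Hs6st1 higher in 3 of 4 mice and both at 0 in mouse 2 (p = 0.25 in the exact permutation test, 0.417 after adjustment). Of the 7 genes for 3-O-sulfation, which makes the rarest mark of the chain, Hs3st1, Hs3st2, Hs3st3a1, Hs3st3b1 and Hs3st6 had 0 counts in every mouse, where 3 counts correspond to at most 0.214 TPM for any of them. Hs3st5 had 111 counts in mouse 2 alone and Hs3st4 had 1 count in all.

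Outside the cell, sulfatases remove sulfate groups from finished chains and heparanase cuts them. Of these 4 genes, 2 were above the cutoff and 0 were above 1 TPM in every mouse. The shares among protein-coding genes were 44.2% and 30.1%. Sulf1 had 0.619, 12.4, 8.49 and 9.25 TPM in mice 1 to 4, with mouse 1 low, and Sulf2 had 3.50, 0, 3.04 and 2.52 TPM, with none in mouse 2. The difference of 1.26 ± 2.14 in log2(TPM + 1) was within the spread (exact permutation p = 0.375). The heparanase gene Hpse had at most 3 counts in a mouse and Hpse2 had none.

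**Figure D5:**
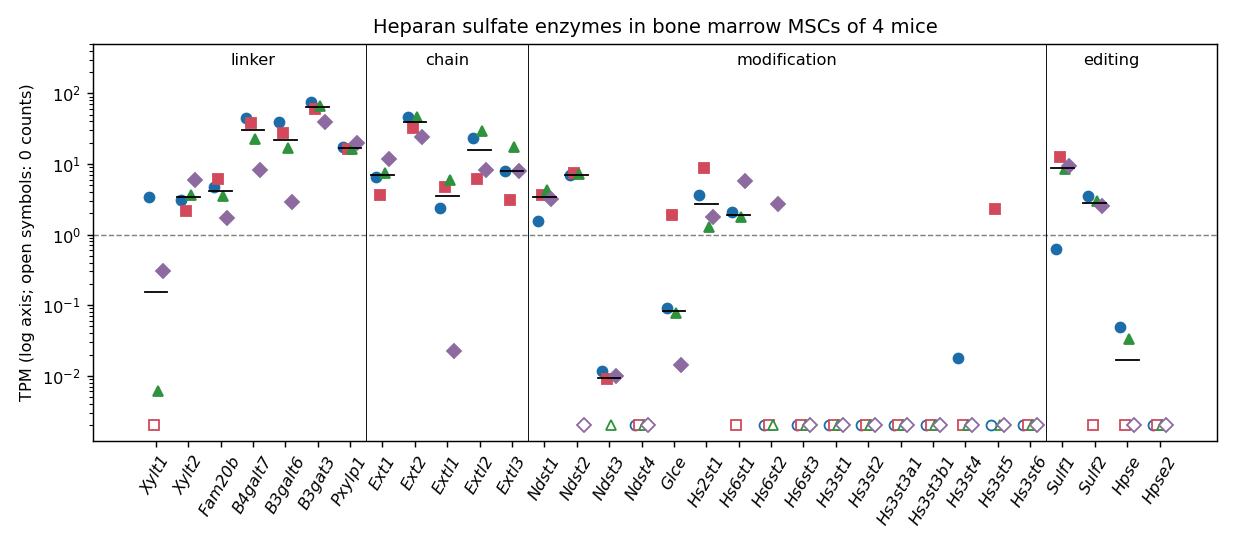
TPM of the heparan sulfate enzymes (log axis) in each mouse, grouped into linker, chain polymerization, chain modification and extracellular editing; symbols as in the plot of the members, black lines are medians above 0 and the dashed line marks 1 TPM. Linker and polymerization genes lie mostly above the line, while 7 of the 16 modification genes had 0 counts in every mouse.

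A list of 13 genes for shedding and lipid anchor cleavage also took in the matrix glycoprotein gene Thbs1. Of the 13, 11 were above the cutoff and 7 were above 1 TPM in every mouse, against 44.2% and 30.1% of protein-coding genes. Mmp2 and Mmp14, metalloproteinases of the matrix and of the membrane, had 657 ± 185 and 58.3 ± 7.69 TPM (mean ± SD, n = 4). Adam10, a sheddase of cell-surface proteins, was at 21.2 to 32.6 TPM in every mouse, whereas Adam17, another sheddase, was at 9.06 to 9.58 TPM in mice 1, 3 and 4 and had 3 counts in mouse 2. Mmp7 had 0 counts in every mouse. Notum, which encodes a secreted lipase, was under 0.2 TPM in mouse 1 and between 9.52 and 14.9 TPM in the others. Gde1 and Gdpd2, of the glycerophosphodiester phosphodiesterase family, had 137 ± 68.6 and 112 ± 60.3 TPM. Gdpd5, of the same family, had 3.27, 0, 3.12 and 0.172 TPM in mice 1 to 4. Which of these genes act on glypican anchors was not tested. Of the 7 genes for making and attaching the lipid anchor, 6 were above the cutoff, led by Gpaa1 and Pigs, subunits of the transamidase that attaches it, at 57.4 ± 9.99 and 55.9 ± 15.4 TPM (SD, n = 4).

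Of the 10 genes for partners of the syndecan tail, 6 were above the cutoff and 3 were above 1 TPM in every mouse. Protein-coding genes had shares of 44.2% and 30.1%, so the count in every mouse was near that of genes in general. Sdcbp, which encodes syntenin, had 97.9, 81.4, 87.6 and 36.4 TPM in mice 1 to 4, with mouse 4 low. Gipc1, another scaffold that binds the tail, had 51.1, 45.9, 87.0 and 146 TPM and was highest in mouse 4. Prkca, the kinase that Sdc4 engages at focal adhesions, was steady at 5.03 to 7.65 TPM. Sdcbp2, Gipc2 and Gipc3 had 0 counts in every mouse. Of 5 integrin genes, 4 were above the cutoff, with Itgb1, the common beta chain, at 183 ± 20.5 TPM and Itgb5 at 40.4 ± 4.26 TPM (SD, n = 4).

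Of 11 other proteoglycans that carry heparan sulfate always or at times, 8 were above the cutoff, against 44.2% of protein-coding genes. The highest medians were those of Srgn, a proteoglycan of secretory granules, and of Tgfbr3, the TGF-beta co-receptor betaglycan. Srgn had 28.2 ± 13.4 TPM and Tgfbr3 30.7 ± 19.7 TPM (mean ± SD, n = 4). Tgfbr3 was 59.9 TPM in mouse 2 and between 18.4 and 24.8 TPM in the others. The basement membrane proteoglycans Agrn and Hspg2 had 8.69 ± 6.33 and 4.51 ± 0.72 TPM. Sdc2, Sdc4, Gpc4, Gpc1, Sdc1 and Sdc3 all had higher medians than any of these 11 genes. In single mice this order did not always hold. For example, Srgn, at 40.2 TPM in mouse 4, was above Gpc4, Sdc1 and Sdc3 there, and Tgfbr3 was above Sdc3 in mouse 2.

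Among 24 genes for proteins that bind heparan sulfate, 16 were above the cutoff and 10 were above 1 TPM in every mouse. Protein-coding genes had shares of 44.2% and 30.1%. Cxcl12 stood highest, with 983, 4329, 2224 and 1079 TPM in mice 1 to 4, followed by medians of 65.0 TPM for Fn1, the fibronectin gene, 52.9 TPM for Mdk, a heparin-binding growth factor, and 39.2 TPM for Lpl, a lipase held on heparan sulfate. Shh, Ihh and Rspo1 had 0 counts in every mouse, and Fgf2 was found in mice 1 and 3 only, at 0.788 and 2.24 TPM. The median over each list was 16.9 TPM for the linker enzymes, 7.96 for polymerization, 0 for modification, 1.40 for extracellular editing, 10.4 for shedding and anchor cleavage, 14.3 for anchor attachment, 2.75 for tail partners, 4.77 for other proteoglycans, 15.9 for integrins and 2.86 TPM for ligands, against 0.135 TPM over all protein-coding genes.

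By the smallest root mean square difference in log2(TPM + 1) over the 4 libraries, among 9677 protein-coding genes above the cutoff, the levels most like those of Sdc2 were of Naxe, Tmem208 and Atraid, at 0.06, 0.15 and 0.16. Those most like the levels of Gpc4 were of Tspan17, Psmb8 and Rnaseh2c, at 0.12, 0.22 and 0.24. With so many genes and 4 libraries, this is a description of levels only.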

How the data were processed

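MSCs were sorted from bone marrow of 4 mice, 1 library each. The authors deposited raw counts per Ensembl gene, not normalized. By the methods of the study, STAR placed the pairs on GRCm39, joined mates that overlap, and featureCounts counted unique pairs over exons. By default such counting leaves out pairs that overlap several genes. The submitters' processing notes give STAR 2.7.10 and Subread 1.6.5.

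Levels in TPM were calculated (pandas 2.3.3, numpy 2.4.6 and scipy 1.17.1 under Python 3.11.15) from the union of exons in GENCODE M21 (GRCm38), another build than that of the counts, so a gene whose exons changed has a TPM off by the ratio of its lengths. Of the listed genes, 52125 had a length. No coordinates were converted. A gene was called above the cutoff at a median over 1 TPM. Differences used log2(TPM + 1), a scale that understates those of low genes, and exact two-sided sign-flip tests over mice. The labels do not say whether the mice were littermates. Depth was 22738604 to 43545349 counts, so 3 counts, the floor, are 0.0689 to 0.132 per 1000000; floors cover counting error only. Copies were searched with BLAST 2.17.0 (95% identity, 100 bases). The code was tested on simulated data. TMM factors came from edgeR 4.0.16 (R 4.3.3).

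Members, lists and pairs were chosen with earlier results of these data known. Genes named are the members, the pairs, those of highest median or with 0 counts in each list, and 3 with the closest levels. Further list genes, such as Xylt1, Notum, Adam17, Hs6st1, Hs3st5 and Prkca, were named after their values were seen.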

Additional observations from a re-analysis of the deposited data

Results flagged for a closer look

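Of 104 values compared over the 4 mice, 17 had one mouse apart: its gap to the nearest mouse, divided by the range over all 4, exceeded the 95% limit that Dixon's criterion sets for 4 samples. For normally spread values chance gives about 1 in 20, or 5.2 of 104, but a gene or sum with counts in a single mouse has a gap of 1 by construction, so these numbers are no measure for such values. Among the members these were Gpc3, high in mouse 2 at 18.2 TPM against at most 0.645 TPM (gap 0.964), Gpc5, found in mouse 4 alone at 3.15 TPM (gap 1), and Gpc2, with 3 counts in mouse 4 alone (gap 1).

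Tgfbr3 (gap 0.845), Agrn (0.846), Lpl (0.892) and Itgb1 (0.871) stood apart in mouse 2 as the highest, at 59.9, 18.1, 290 and 214 TPM. The summed chain modification enzymes also peaked in mouse 2, with 24.0 TPM where the others had 13.4 to 14.5 TPM (gap 0.892). Adam17 was lowest in mouse 2 (gap 0.946) and Ndst2 in mouse 4 (gap 0.945). Mouse 1 was lowest for the summed sulfatases and heparanases, at 4.16 TPM against 11.6 to 12.4 TPM (gap 0.903), and highest for Ptn, at 11.8 TPM (gap 0.840).

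Of the marker lists, the chondrocyte sum was highest in mouse 1 (352 TPM, gap 0.926), the megakaryocyte sum in mouse 1 (7.95 TPM, gap 0.966), the macrophage sum in mouse 3 (6.63 TPM, gap 0.925), and the B cell and epithelial sums in mouse 4 (1.46 and 0.927 TPM, gaps 1 and 0.972).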

How the results depend on the processing

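The number of members above the cutoff, 7, was the same with every alternative but the mean over mice, which gave 8 by adding Gpc3 from mouse 2. Of 102 genes in the lists outside the members, 68 were above the cutoff, which 44.2% of protein-coding genes passed. The count was between 46 and 67 under the alternatives, with 64 to 67 when a mouse was left out. Requiring more than 1 TPM in every mouse lowered the counts from 11 to 7 for shedding and anchor cleavage, 16 to 10 for ligands, 6 to 3 for tail partners, 4 to 2 for modification and 2 to 0 for editing. Of 19 differences, 16 were never reversed under 11 alternatives. Gpc4 minus Gpc1, 0.24 in log2(TPM + 1), turned to -0.063 with the longest transcript, to -0.71 without a length correction and to -0.062 with exonic bases not shared with another gene, the last chosen after seeing the data. Ndst1 minus Ndst2, -0.26, turned to 0.63 without a length correction and to 0.31 with a pseudocount of 0.1, and lay between -1.04 and 0.20 when a mouse was left out, turning without mouse 1. Gpc3 minus Gpc5, 0.75, lay between -0.43 and 1.68 when a mouse was left out, turning without mouse 2, the mouse with nearly all Gpc3 counts. Gpc2 minus Gpc5, -0.49, lay between -1.07 and 0 over all alternatives and between -0.65 and 0 when a mouse was left out, and was 0 without mouse 4, the library with all counts of both. The cause of the other changes was not tested. With 4 mice the exact sign-flip test cannot fall below 0.125, and 0.05 is out of its reach under every setting. No paired analysis was possible because all libraries form one group, so that there were no groups to pair by mouse number, although genes were compared within mice.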
